A study of Mus musculus with 12 samples.

Results

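The 8 genes described here carry long-chain fatty acids into liver mitochondria, start their beta-oxidation, and turn the resulting acetyl units into ketone bodies. They are Bdh1, Acat1, Cpt1a, Cpt2, Acadm, Acadvl, Acad9 and Hadha, chosen by name, and a probe belonged to a gene when its RefSeq accession did. All 8 were among the 16916 genes tested, and together they were read by 12 probes, every one of them well above background on all 12 arrays. Liver RNA was taken from male mice aged 30 weeks, 6 Floxed and 6 LKO, and each single-color array held 1 mouse. Floxed mice were homozygous for a conditional Phgdh allele (Phgdh flox/flox) and carried no Cre, and LKO mice were their littermates of genotype Alb+/Cre;Phgdh flox/flox. Both genotypes therefore carried the conditional allele, and the genotypes differed in Cre under the albumin promoter as well as in the deletion of Phgdh, the enzyme that commits 3-phosphoglycerate to serine synthesis. The albumin promoter acts in hepatocytes, so the other cell types of the liver kept an intact Phgdh gene. The mice had free access to chow, and whether they were fasted before the liver was taken is not given in the sources used here. In whole liver, a smaller number of cells of a type and less RNA per cell cannot be told apart.

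Long-chain fatty acids cross the mitochondrial membranes as carnitine esters. Cpt1a of the outer membrane makes the ester and is the step that malonyl-CoA inhibits, a carrier brings it across the inner membrane, and Cpt2 turns it back into acyl-CoA. Acyl-CoA dehydrogenases of different chain length then open each round of beta-oxidation, the trifunctional protein carries out the later steps on long chains, and in the fasted liver much of the acetyl-CoA leaves as acetoacetate and beta-hydroxybutyrate. Many of these genes are targets of Ppara, a nuclear receptor that pairs with a retinoid X receptor on repeats of the hexamer AGGTCA.

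The promoters are shown because such hexamers can be read directly in them. RefSeq promoter sequences of assembly GRCm38.p6 were matched for 6 of the 8 genes, giving 7 promoters because Bdh1 had a pair of starts. In the 250 bases before the transcript start, AGGTCA stood on either strand in 3 of the 7 promoters and in 14.0% of 32851 mouse promoters of the same length. The 3 promoters that held it were those of Acadm, Acadvl and Cpt1a, and they follow from 5′ to 3′ on the strand of the gene. Capitals mark AGGTCA and, in Cpt1a, also the GC box GGGCGG and the CCAAT box, each on either strand, so that TGACCT is AGGTCA and CCGCCC is GGGCGG on the other strand.
Acadm, chr3:153944644-153944893, minus strand: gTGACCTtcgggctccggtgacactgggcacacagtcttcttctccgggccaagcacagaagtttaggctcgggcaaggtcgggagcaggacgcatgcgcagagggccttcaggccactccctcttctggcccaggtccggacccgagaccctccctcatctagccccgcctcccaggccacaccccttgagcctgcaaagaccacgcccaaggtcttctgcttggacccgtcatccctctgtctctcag
Acadvl, chr11:70015429-70015678, minus strand: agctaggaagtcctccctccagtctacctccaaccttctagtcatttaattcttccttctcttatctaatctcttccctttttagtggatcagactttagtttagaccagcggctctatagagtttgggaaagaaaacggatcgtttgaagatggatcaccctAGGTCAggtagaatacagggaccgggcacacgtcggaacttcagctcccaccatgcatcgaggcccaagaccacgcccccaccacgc
Cpt1a, chr19:3323051-3323300, plus strand: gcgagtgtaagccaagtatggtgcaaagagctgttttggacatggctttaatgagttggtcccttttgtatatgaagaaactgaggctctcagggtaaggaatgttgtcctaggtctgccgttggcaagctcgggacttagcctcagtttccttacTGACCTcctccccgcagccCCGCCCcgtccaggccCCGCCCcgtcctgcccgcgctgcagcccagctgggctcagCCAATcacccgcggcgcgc
The hexamer began 249 bases before the start in Acadm, 87 in Acadvl and 94 in Cpt1a. The Cpt1a window lies inside the span of the gene, chr19:3322326-3385735, so it does not precede the first base of that span. A direct repeat of the hexamer with any 1 base between its copies was in none of the 7 windows and in 0.033% of all promoters. The extended hexamer TCAAGGTCA was likewise in none, against 0.387% of all promoters. Only exact copies within the 250 bases were searched. In Acadm the hexamer lies at the far edge of the window, so a partner copy could fall outside it. GGGCGG was found in 3 of the 7, those of Cpt1a, Cpt2 and Hadha, against 32.7% of all promoters, and CCAAT in Cpt1a alone, against 33.9%. The E-box CACGTG (6.02% of all promoters) and the cyclic AMP element TGACGTCA (1.55%) were in none of the 7.

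The arrays lay on 3 slides, and slide 2 was the only one with both genotypes. Floxed 1 to 4 were on slide 1, Floxed 5, Floxed 6, LKO 1 and LKO 2 on slide 2, and LKO 3 to 6 on slide 3, so that the difference within slide 2 is given for each of the 8 genes and for each list gene called below. Between 21614 and 24252 probes were well above background on an array. LKO 5 had the lowest 75th percentile of intensity, 239 against 258 to 473 on the others, and its highest correlation with any other array was 0.989, against 0.992 to 0.996. Phgdh differed by -0.48 on the log2 scale (SE, the standard error, 0.18), with an unadjusted limma p of 0.0179, an adjusted p of 0.451 and an exact permutation p of 0.0346. Within slide 2 its difference was -0.055. The arrays labeled LKO 1 and LKO 2, with 5.07 and 5.30, lay inside the Floxed range of 4.81 to 5.50 for Phgdh. Counts below are therefore also given without them, which leaves no slide with both genotypes. Phgdh was dim, with a Floxed mean of 5.18 against 10.06 for Hadha, the dimmest of the 8 genes. Whether the Phgdh probe lies in the deleted exons was not analysed here. Of 13 hepatocyte markers on the array, all 13 were well above background on every array, and so were all 9 endothelial, 7 Kupffer cell and 9 stellate cell markers. Among 10 pancreas acinar markers, 5 were well above background on no array, and 4 (Amy2a5, Ctrb1, Cel and Clps) on all 12. These 4 had higher means in LKO mice, with 1 called, the lipase Cel, at 0.54 log2 units and 0.27 within slide 2. Their mean deviation spanned -0.29 to 0.20 on Floxed and -0.20 to 0.37 on LKO arrays, highest on LKO 5, and their part in the results below was not tested.

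A gene was called where its unadjusted p from limma was below 0.05. Of the 8 genes 1 was called, Acad9. It was higher in LKO mice by a fold of 1.17. Of all tested genes 8.35% were called (4.92% higher and 3.43% lower in LKO mice), so that 1 of 8 was close to the background share. With Benjamini-Hochberg adjusted p-values none of the 8 and none of the 16916 passed (0%), with a smallest adjusted p of 0.132, and none of the 8 passed the methods' t-test after adjustment. At an unadjusted p below 0.05 the methods' t-test called 2 of the 8, Acad9 and Acadvl, against 7.31% of all genes. The mean was higher in LKO livers for 7 of the 8 genes, and the median of their log2 fold changes was 0.11, against 48.8% of all genes and a median of -0.0035. Within slide 2, and likewise without LKO 1 and LKO 2, 6 of 8 were higher. In none of the 8 genes did the values of the genotypes separate fully, which was so for 0.296% of the genes of the array.

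**Figure D1:**
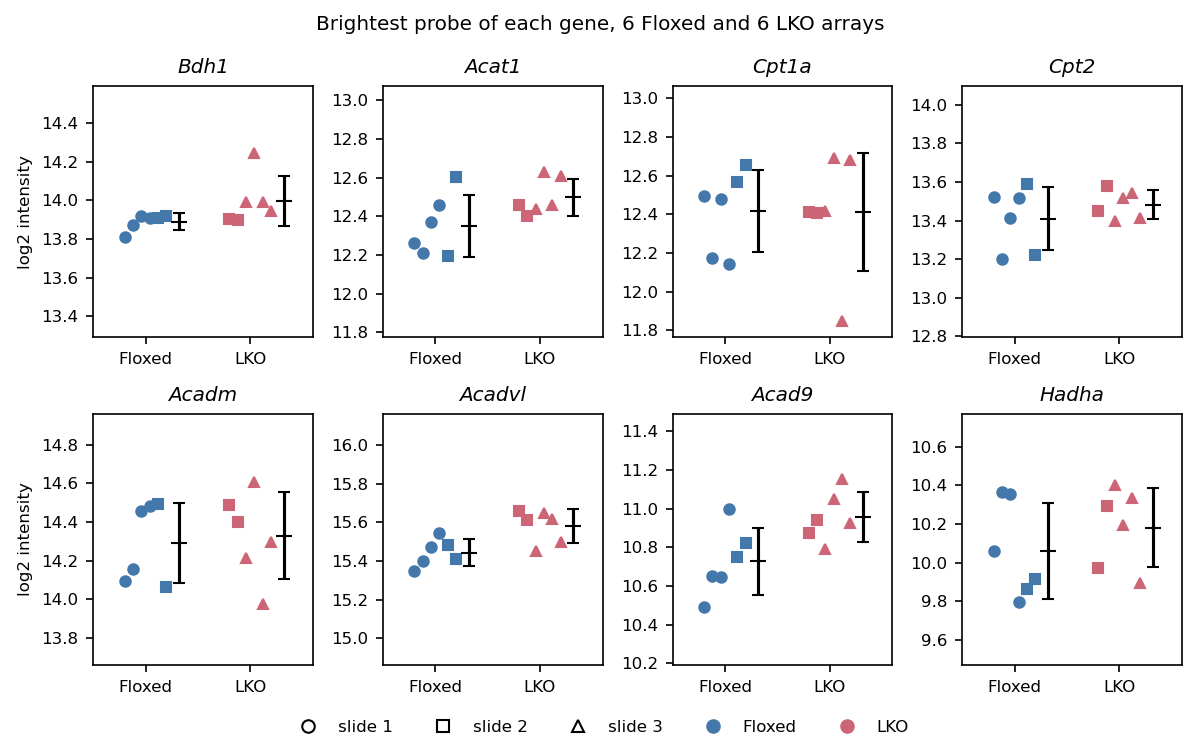
Log2 intensity (vertical axis) of the brightest probe of each of the 8 genes, with 1 point per mouse, blue for Floxed and red for LKO, and shapes for the slides; bars are means with SD of 6 mice, and every panel spans the same range of log2 units. The genotypes overlap in all 8 panels, with the LKO mean of Acad9 higher by 0.23 and that of Cpt1a almost equal to the Floxed mean.

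Fatty acid entry was read by the probes of Cpt1a and Cpt2. Cpt1a lies at chr19:3322326-3385735 in GRCm38.p6, the build of all positions given here. On its brighter probe, Floxed mice ranged from 12.14 to 12.65 in log2 intensity with a median of 12.49, and LKO mice from 11.85 to 12.69 with a median of 12.41. The LKO values spanned the whole Floxed range, and the lowest value was that of LKO 5. The mean difference, LKO minus Floxed, was -0.0083 log2 units (SE 0.14, 95% confidence interval -0.32 to 0.30), with an adjusted limma p of 0.997. It was -0.20 within slide 2 and 0.10 without LKO 5, so that no direction can be given. This probe was printed on 10 spots per array, whose SD within an array was between 0.021 and 0.11, while the SD between mice was 0.21 in Floxed and 0.31 in LKO mice.

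A second, dimmer Cpt1a probe gave lower values in LKO mice. Floxed mice ranged from 8.97 to 9.73 with a median of 9.30, and LKO mice from 8.20 to 9.05 with a median of 8.93. Only Floxed 4, at 8.97, lay within the LKO range. LKO minus Floxed was -0.55 in log2 units (SE 0.15, 95% confidence interval -0.88 to -0.21), a fold of 0.684, with an unadjusted limma p of 0.00361 and an adjusted p of 0.307 over all probes. By a two-sided exact permutation test p was 0.00433. Of all 20403 probes 8.54% were called. Within slide 2 the difference was -0.31. With the mean of both probes in place of the brighter one, the Cpt1a difference was -0.28, with an unadjusted limma p of 0.0639.

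Because both probes were measured on the same array, their difference removes what is common to them. The brighter minus the dimmer probe was 3.08 ± 0.22 (SD, n = 6) in log2 units in Floxed mice, from 2.76 to 3.31, and 3.62 ± 0.24 (SD, n = 6) in LKO mice, from 3.37 to 4.04. The genotypes did not overlap, which was so for 0.914% of the 2954 genes with 2 such probes and full values. The genotypes differed by 0.54 (SE 0.13), with an unadjusted limma p of 0.00104 and an adjusted p of 0.118 over 2965 genes, of which 9.34% were called. The exact permutation test gave p = 0.00216, the smallest that 6 against 6 mice allow. The same quantity also followed the slides, with 2.76 to 3.17 on slide 1, 3.31 to 3.47 on slide 2 and 3.49 to 4.04 on slide 3, and such an order without overlap was seen in 0.305% of the genes. Within slide 2 the LKO arrays exceeded the Floxed arrays by 0.11. On every slide it was also lower at position 1 than at position 4, rising from 2.76 to 3.17, from 3.31 to 3.47 and from 3.49 to 4.04, and on slide 2 the Floxed arrays held the first positions. With slide as a fixed block, where only slide 2 compares the genotypes, the difference was 0.11, with an unadjusted limma p of 0.533. Beyond that, the part of slide and position in the probe difference was not tested. Which transcripts each probe reads was not analysed here.

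**Figure D2:**
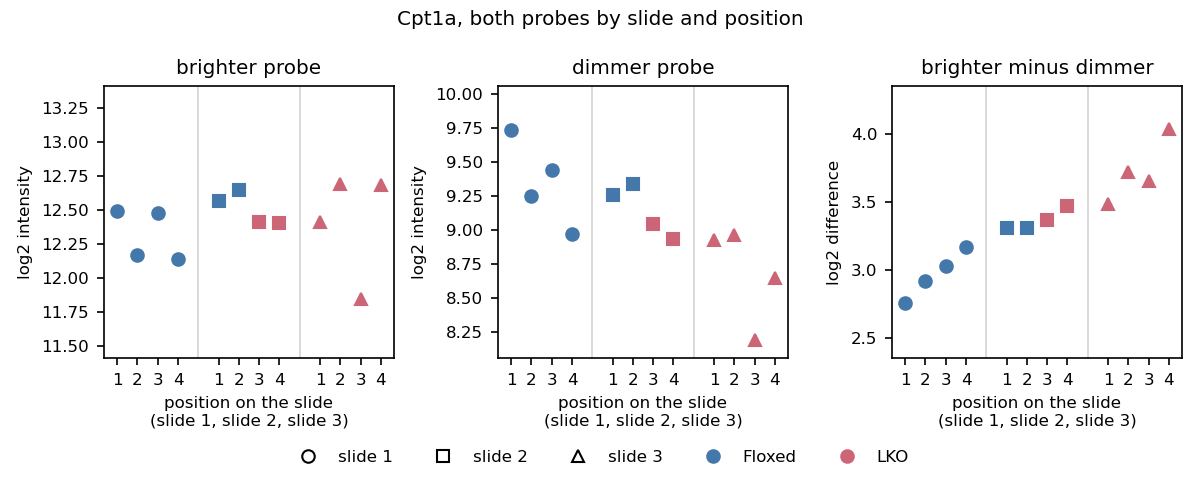
Both Cpt1a probes (log2 intensity) and their log2 difference on each array, ordered by slide and by position on the slide, in blue for Floxed and red for LKO. The values of the brighter probe overlap between the slides, the dimmer probe has its lowest values on slide 3, and the difference rises from 2.76 on slide 1 to 4.04 on slide 3.

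No difference in Cpt2 (chr4:107903982-107923589) was detectable between the genotypes. Its brighter probe ranged from 13.20 to 13.59 in Floxed livers (median 13.46) and from 13.40 to 13.58 in LKO livers (median 13.48). All LKO values thus lay within the Floxed range. The means differed by 0.072 (SE 0.084, 95% confidence interval -0.11 to 0.25, limma adjusted p = 0.948), and 0.11 within slide 2. The other Cpt2 probe gave -0.028 (SE 0.17), so that the probes differed in sign within their errors, and the mean of both gave 0.022.

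The acyl-CoA dehydrogenases held the only called gene. Acad9 (chr3:36065979-36092857), a relative of Acadvl that is best known as a factor needed to assemble respiratory complex I, ranged from 10.49 to 11.00 in Floxed livers (median 10.70) and from 10.79 to 11.15 in LKO livers (median 10.93). Floxed 4, with 11.00, was above 4 of the 6 LKO mice, and of the other Floxed mice only Floxed 6 exceeded an LKO mouse, LKO 3. On average LKO livers were higher by 0.23 log2 units (SE 0.094, 95% confidence interval 0.026 to 0.43), with an unadjusted limma p of 0.0298 and an adjusted p of 0.525. By the exact permutation test p was 0.0303. The difference was 0.12 within slide 2. With slide as a fixed block Acad9 was not called (unadjusted limma p of 0.499). With slide as a random block it was, at 0.24 (SE 0.086) with an unadjusted limma p of 0.0155. That fit still uses differences between slides, so it does not separate genotype from slide. Without LKO 1 and LKO 2, where no slide holds both genotypes, Acad9 differed by 0.25, with an unadjusted limma p of 0.0454. It was called in 7 of the 12 fits that each left out 1 array, and not called without Floxed 1, Floxed 2, Floxed 3, LKO 4 or LKO 5, where the unadjusted limma p was 0.0681, 0.0539, 0.0591, 0.0608 and 0.0665.

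Acadvl (chr11:70010183-70015428), which acts on very long chains and sits on the inner membrane, ranged from 15.35 to 15.55 in Floxed livers (median 15.44) and from 15.45 to 15.66 in LKO livers (median 15.62). The LKO mice fell into 4 that were above every Floxed mouse and 2, LKO 3 and LKO 6, that were within the Floxed range. The LKO mean was above the Floxed mean by 0.14 log2 units (SE 0.067, 95% confidence interval -0.0061 to 0.28), with an unadjusted limma p of 0.0590 and an adjusted p of 0.624. The exact permutation test of the same values gave p = 0.0195, so that the tests fell on different sides of the threshold. Within slide 2 both LKO arrays were above both Floxed arrays, by 0.19 on average.

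Acadm (chr3:153922353-153944643), the medium-chain enzyme, ranged from 14.06 to 14.49 in Floxed livers (median 14.31) and from 13.97 to 14.61 in LKO livers (median 14.34). The Floxed mice formed a low trio from 14.06 to 14.16 and a high trio from 14.46 to 14.49, each with mice of slides 1 and 2, and the LKO mice spanned both. The log2 fold change of Acadm was 0.038 (SE 0.12, 95% confidence interval -0.22 to 0.30, limma adjusted p = 0.978). It was 0.16 within slide 2 and -0.019 without LKO 1 and LKO 2, so that its direction depended on the arrays.

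Hadha (chr5:30119423-30154980) encodes the alpha subunit of the trifunctional protein, which holds the hydratase and the hydroxyacyl-CoA dehydrogenase. It ranged from 9.80 to 10.37 in Floxed livers (median 9.99) and from 9.89 to 10.40 in LKO livers (median 10.24). The ranges nearly coincided. Its mean difference was 0.12 log2 units (SE 0.13, 95% confidence interval -0.15 to 0.40, limma adjusted p = 0.933), and 0.24 within slide 2. Hadhb, which encodes the partner subunit, had a difference of 0.0079 log2 units (SE 0.065).

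The ketone body enzymes differed by small amounts. Acat1 (chr9:53580522-53610350), the mitochondrial thiolase that joins acetyl-CoA into acetoacetyl-CoA and acts in the reverse direction as well, ranged from 12.20 to 12.60 in Floxed livers (median 12.32) and from 12.40 to 12.63 in LKO livers (median 12.46). All LKO mice were above 4 of the 6 Floxed mice, the exceptions being Floxed 4 and Floxed 6. The genotypes differed by 0.15 log2 units (SE 0.086, 95% confidence interval -0.039 to 0.33, limma adjusted p = 0.747). It was 0.027 within slide 2, and without Floxed 6 it was 0.20, with an unadjusted limma p of 0.0308.

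Bdh1 (chr16:31422297-31458901), which interconverts acetoacetate and beta-hydroxybutyrate on the inner membrane, was read by 3 probes. The brightest ranged from 13.81 to 13.92 in Floxed livers (median 13.91) and from 13.90 to 14.24 in LKO livers (median 13.97). All 4 LKO mice of slide 3 were above every Floxed mouse, and LKO 1 and LKO 2 of slide 2 were within the Floxed range. The mean difference was 0.11 log2 units (SE 0.072, 95% confidence interval -0.051 to 0.26), with an unadjusted limma p of 0.168 and an adjusted p of 0.827. The exact permutation test gave p = 0.0368. LKO 4 stood apart at 14.24, and without it the log2 fold change was 0.056, while within slide 2 the difference was -0.014. The other Bdh1 probes matched another RefSeq transcript of the gene. The second-brightest gave 0.11 (SE 0.081) and the dimmest 0.028 (SE 0.13), and neither was called.

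**Figure D3:**
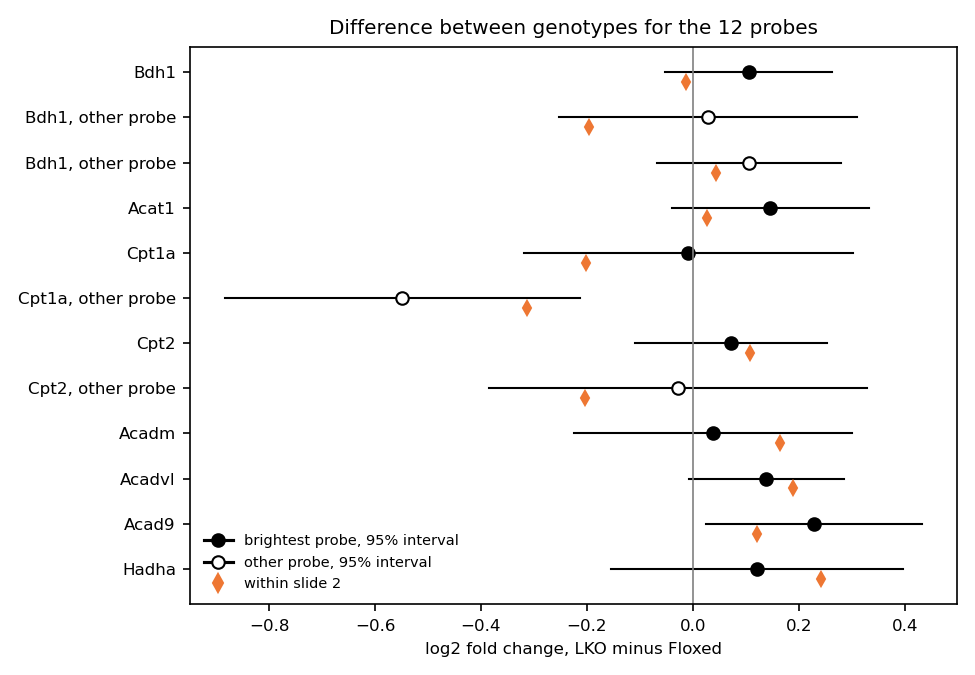
Log2 fold change, LKO minus Floxed (horizontal axis), of the 12 probes with 95% confidence intervals, filled for the brightest probe of a gene and open for others, with orange diamonds for the difference within slide 2. The interval lies above 0 for Acad9 and below 0 for the dimmer Cpt1a probe and includes 0 for the other 10.

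Among the 12 arrays, LKO 4 had the highest value for 4 of the 8 genes, Bdh1, Acat1, Cpt1a and Acadm. Averaged over the 8 genes, the deviation from the mean of each gene was 0.20 on LKO 4, between -0.012 and 0.064 for the rest of the LKO mice and between -0.12 and 0.013 for the Floxed mice. Without LKO 4, 6 of the 8 genes were higher in LKO mice and none was called, while 1190 of the 16916 genes were. On LKO 4 the Kupffer cell and macrophage markers were lowest of the 12 arrays, at a mean deviation of -0.79 where Floxed arrays spanned -0.52 to 0.91, and the 7 lymphocyte markers well above background on all arrays were lowest too, at -0.38 against -0.22 to 0.24. The hepatocyte markers on LKO 4 were at -0.0047, within the Floxed range of -0.042 to 0.10. LKO 5, the array with the lowest Cpt1a value, had the lowest hepatocyte marker mean of the 12 arrays, -0.12, as well as the highest pancreas marker mean, 0.37. The part of these differences in the values of LKO 4 and LKO 5 was not tested.

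**Figure D4:**
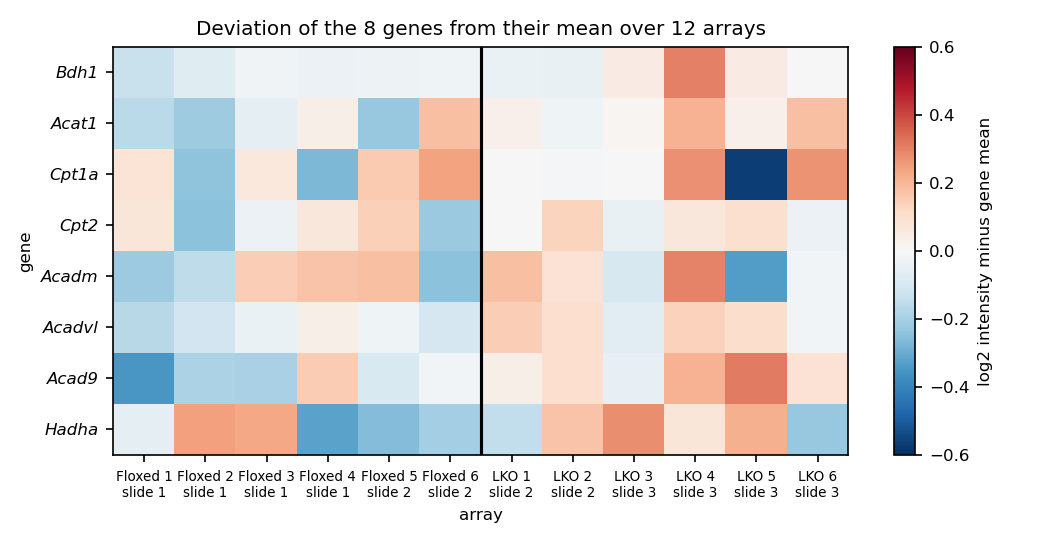
Log2 intensity minus the mean of the gene over 12 arrays (color) for the 8 genes (rows) on each array (columns), with the genotypes separated by a line. LKO 4 is high for most genes (mean deviation 0.20), and LKO 5 is low for Cpt1a and Acadm and high for Acad9.

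The 8 genes did not vary as 1 block. Over the 12 arrays, 19 of the 28 pairs had a Pearson r above 0, with a median of 0.20, or 0.12 after the mean of each genotype was removed. The highest was that of the related dehydrogenases Acadvl and Acad9, at 0.81 (0.66 within genotype), and the lowest that of Cpt1a and Hadha, at -0.34. These values describe 12 arrays that share slides and normalization. Of 12502 other named genes, those most like the mean of the 8 standardized genes over the 12 arrays were Rabl2 (r = 0.89), Plekha8 (0.85), Mbl2 (0.84), Mpc2 (0.84) and Hsd17b4 (0.83). Mpc2 is a subunit of the mitochondrial pyruvate carrier, Hsd17b4 is the multifunctional enzyme of peroxisomal beta-oxidation, and Mbl2 is a lectin secreted by the liver. The log2 fold changes of these 5 genes were between 0.084 and 0.29, and within slide 2 between 0.024 (Mbl2) and 0.24 (Rabl2). They were picked by likeness to a mean that was itself higher in LKO mice, so the choice favors positive fold changes.

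The other genes of the pathway were examined as 9 lists. Of their tested genes 5 were called higher and 1 lower in LKO mice, against 4.92% and 3.43% of all genes, and at any p 73 were higher and 34 lower, where 48.8% of all genes were higher, with a median log2 fold change of 0.060. Within slide 2 the mean over all these genes differed by -0.0018 between the genotypes, and the mean of a list by -0.22 (ketone bodies) to 0.23 (fasting response). In ketone body synthesis, use and export, 0 of 9 genes were called higher and 1 lower. Bdh2, a cytosolic relative of Bdh1, had a difference of 0.066 log2 units (SE 0.095). The gene called lower was Slc16a7, a transporter of pyruvate, lactate and ketone bodies, with LKO minus Floxed at -0.95 log2 units (SE 0.31, limma adjusted p = 0.383). It spanned 9.70 to 11.32 in Floxed livers and 9.39 to 10.84 in LKO livers, and the difference within slide 2 was -1.29. Its exact permutation p was 0.0238.

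In carnitine supply and shuttle, none of 11 genes was called, and 10 of 11 had a higher mean in LKO mice, with a median of 0.071, while the mean of the list differed by -0.0030 within slide 2. Slc25a20, the carrier between Cpt1a and Cpt2, had a difference of 0.071 log2 units (SE 0.13). None of 13 genes of fatty acid uptake and activation was called, with a median of 0.044. Of the 12 other dehydrogenases and electron transfer genes none was called either, with a median of 0.058. Acads and Acadl, for short and long chains, had log2 fold changes of 0.19 (SE 0.16) and 0.060 (SE 0.082). Etfdh, which passes their electrons to ubiquinone, had 0.057 (SE 0.10). In the 5 tested complex I assembly partners of Acad9 none was called, and Ecsit, which binds Acad9 in the assembly complex, had a difference of 0.042 log2 units (SE 0.057).

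The list of later steps of mitochondrial beta-oxidation also held thioesterases. Of its 13 genes 2 were called higher and none lower, against 4.92% and 3.43% of all genes, with a median of 0.092. No enzyme of the beta-oxidation steps themselves was called. The called genes were Acot2 and Acot9, mitochondrial thioesterases that release free fatty acids from acyl-CoA. Their log2 fold changes were 0.49 (SE 0.22, limma adjusted p = 0.584) and 0.27 (SE 0.11, limma adjusted p = 0.510), and within slide 2 the differences were 0.15 and 0.48. Exact permutation tests gave p = 0.0779 for Acot2 and 0.0325 for Acot9. Acot2 was dim, at 4.48 to 5.73 in Floxed livers. In peroxisomal beta-oxidation 1 of 12 genes was called, the thiolase Acaa1b, at 0.31 log2 units (SE 0.14, limma adjusted p = 0.588). Its difference within slide 2 was 0.19, and its exact permutation p was 0.0714. None of the 18 regulators of fatty acid oxidation was called, and their median was -0.044.

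The fasting response list had the highest median of the 9 lists, 0.26 over 16 genes. In it 2 genes were called higher and none lower, against 4.92% and 3.43% of all genes. At any p, 12 of the 16 had a higher and 4 a lower mean in LKO mice. Pdk4, the kinase that switches off pyruvate dehydrogenase in fasting, spanned 7.13 to 8.13 in Floxed livers and 7.80 to 9.20 in LKO livers. Its log2 fold change was 1.05 (SE 0.27, limma adjusted p = 0.280), and within slide 2 the difference was 1.87. Plin5, a lipid droplet protein that tethers droplets to mitochondria, had a difference of 0.32 log2 units (SE 0.14, limma adjusted p = 0.564), and 0.34 within slide 2. Exact permutation tests gave p = 0.00866 for Pdk4 and 0.0519 for Plin5. The mean deviation of the list was highest on LKO 4, at 0.33, against 0.27 on LKO 5 and at most 0.013 on Floxed arrays, and its lowest value on an LKO array was -0.22.

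**Figure D5:**
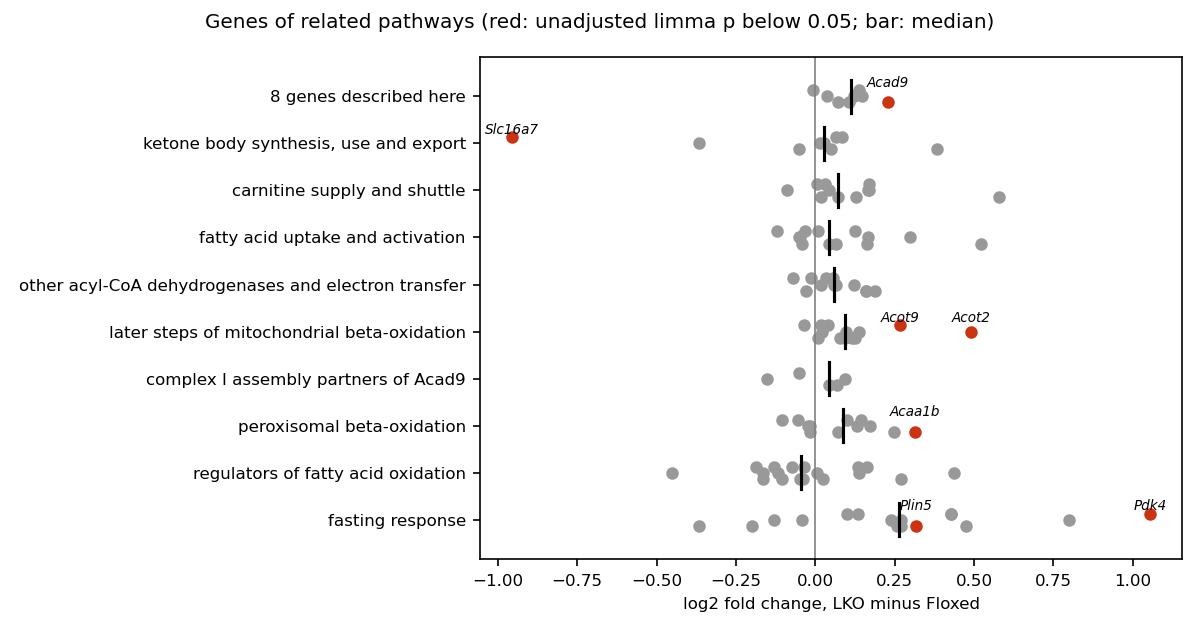
Log2 fold change, LKO minus Floxed (horizontal axis), of each tested gene of the 8 described here and of the 9 related lists, in red where the unadjusted limma p was below 0.05, with a black bar at the median of each list. The fasting response list has the highest median, 0.26, with Pdk4 at 1.05, and Slc16a7 lies lowest at -0.95.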

How the data were processed

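Liver RNA of 12 mice was measured on single-color arrays. The deposited scanner files hold spot intensity per the file headers, raw and background-corrected, not normalized between arrays, from Agilent Feature Extraction (9.5.1.1 in the submitters' labels, 10.7.1.1 in the file headers). The paper and the labels name different RNA extraction kits. The authors also deposited a table of quantile-normalized intensity, of which 99.98% of values lay within 0.1 log2 units of those computed here (median absolute difference 0.022).

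Here the 1377 control spots per array were left out. The processed intensity of 43020 spots was log2-transformed, quantile-normalized over 12 arrays and averaged per probe, with outlier spots (0.298%) missing. The authors filtered on a detection p-value, and here a probe was kept when at least 0.5 of its spots were well above background on all 12 arrays (20403 probes). Of 28389 probes with a RefSeq accession, 94.3% were named through a RefSeq table of GRCm38.p6. The brightest probe stood for a gene, which gave 16916 genes. No spot was saturated, and the number of arrays limits the precision.

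Genotypes, taken from sample titles, were compared with limma 3.58.1 in R 4.3.3 (lmFit, eBayes, no covariates) at an unadjusted p below 0.05, with Benjamini-Hochberg adjusted p-values over all genes, or over all probes where a probe is named. Exact permutation tests were two-sided over 924 arrangements. In simulated data with 16893 genes and no slide term, 84% of genes changed by 0.5 log2 units and 100% of those changed by 1.5 were recovered. After adjustment these shares were 40% and 95%, and without it 4.86% of unchanged genes were called. Slide and genotype largely coincided on the real arrays, so these shares do not give the recovery or the false calls there.

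The 8 genes and all lists were chosen with earlier results of these data known. The lists were written from general knowledge. The genes named are the 8 with all probes, Phgdh, every list gene called, 7 direct partners (Bdh2, Slc25a20, Hadhb, Acads, Acadl, Etfdh and Ecsit), and the 5 genes most correlated with the mean of the 8. Some partners that this rule also named are not reported here. Of the list genes, Hmgcll1, Oxct2a, Cpt1c, Acsl6 and Abcd2 were too dim. The symbols Coa1 and Fsp27 matched no probe, which does not show that those genes were unmeasured under another name. Alternatives covered normalization, background correction, the authors' table, the filter, outlier spots, the probe rule, thresholds, the methods' t-test, slide, replicate number and each array left out. Leaving out LKO 1 and LKO 2 together, and the tests of both Cpt1a probes and their difference, were added after seeing the data.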

Additional observations from a re-analysis of the deposited data

Results flagged for a closer look

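Of 74 groups of 6 arrays examined for an isolated highest or lowest value, 6 had a gap to the nearest array that was too large a share of the group's range by Dixon's criterion at the 95% level, where chance would give 3.7, or about 1 in 20. In LKO mice the array of LKO 4 was isolated for Bdh1, at 14.24 against 13.99 for the next, and for the mean deviation of the 8 genes, at 0.197 against 0.064. LKO 5 was isolated as the lowest Cpt1a value, 11.85 against 12.41 for the next, and as the highest Slc16a7 value, 10.84 against 9.91. Among Floxed mice, Floxed 1 was isolated as the lowest on the dimmest Bdh1 probe, 7.09 against 7.55, and for the mean deviation of the peroxisomal beta-oxidation list, -0.117 against -0.043.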

How the results depend on the processing

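With slide as a fixed block, 317 genes, none of the 8 and 5 list genes were called, Bdh1 turned to -0.014 and its dimmest probe to -0.196, and Acad9 (0.121, p of 0.499), the dimmer Cpt1a probe (-0.313, p of 0.271) and the Cpt1a probe difference (0.111, p of 0.533) were not called by limma. Within slide 2 the values were -0.014 for Bdh1 and 0.111 for the Cpt1a probe difference. With slide as a random block 2 of the 8 were called, Acad9 at 0.239 (limma p of 0.0155) and Acadvl at 0.134 (limma p of 0.0489). Of all genes 11.4% were called, 1925 against 1413 without a block. Cpt1a was 0.0090, and the Cpt1a probe difference had an adjusted limma p of 0.0473. The random-block fit still uses differences between slides, so it does not separate genotype from slide. For slide 1 against slide 3, Acad9 was 0.283 (limma p of 0.0651), Cpt1a 0.088 and Acadm -0.025. Normexp gave 0.0090 for Cpt1a and 0.066 for the other Cpt2 probe. With the mean over a gene's probes, Cpt1a was -0.278 (limma p of 0.0639) and Cpt2 0.022. Without a filter on dim probes 2791 genes (8.58%) and 2 of the 8 were called, with Acadvl at 0.138 (limma p of 0.0235). The methods' t-test, unadjusted, called 2 of the 8 and 1236 genes (7.31%), with Acadvl at 0.138 (a p of 0.0130), and after adjustment 1 gene, none of the 8 and no list gene. Exact permutation tests gave a p of 0.0195 for Acadvl (0.138) and 0.0368 for Bdh1 (0.106). After adjustment of the limma p, 0 genes, 0 of the 8 and 0 list genes passed, and a minimum absolute change of 1 log2 unit left 88 genes, 0 of the 8 and 1 list gene. Without LKO 1 and LKO 2, 2172 genes (12.8%) and 10 list genes were called, Acadm was -0.019 and the other Cpt2 probe 0.011. The Cpt1a probe difference was then 0.64 with an adjusted limma p of 0.0431, against 0.118 with all arrays. Without these 2 arrays no slide holds both genotypes, so genotype and slide cannot be told apart in that fit. Scaling each array to its 75th percentile called 1127 genes higher and 316 lower, against 832 and 581, and shifted the median of all genes from -0.0035 to 0.013. The causes of these changes were not tested.

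Leaving out 1 array at a time, the calls ranged from 1103 to 1837 over all genes, from 0 to 2 of the 8 and from 3 to 10 over the lists. The log2 fold change ranged from 0.182 to 0.283 for Acad9, -0.018 to 0.109 for Acadm, 0.119 to 0.165 for Acadvl, 0.115 to 0.197 for Acat1, 0.056 to 0.125 for Bdh1, -0.064 to 0.104 for Cpt1a, 0.030 to 0.107 for Cpt2 and 0.069 to 0.183 for Hadha. For the other probes it ranged from -0.067 to 0.087 and 0.047 to 0.133 for Bdh1 and from -0.113 to 0.049 for Cpt2. The dimmer Cpt1a probe (-0.620 to -0.430) and the Cpt1a probe difference (0.457 to 0.591) were called in all 12 of these fits.

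The mice of a replicate number had adjacent animal numbers and the genotypes were littermates, but no source used here says that a number marks a litter. The numbers were not used as pairs. Of the same-numbered pairs 3 of 6 correlated above 0.1 (-0.24 to 0.32). Only Floxed 4, Floxed 6 and LKO 4 correlated best with their own number in the other genotype. No same-numbered pair shared a slide, so this check cannot say whether the numbers mark pairs. With a replicate block 1428 genes (8.44%) and 6 list genes were called, with the same count of 1 among the 8, Acad9 (0.229, limma p of 0.0224). The limma p was 0.00383 for the dimmer Cpt1a probe and 5.44e-05 for the Cpt1a probe difference (adjusted 0.128). In all 6 same-numbered pairs LKO was higher for Acad9, Acat1, Bdh1 and the Cpt1a probe difference and lower for the dimmer Cpt1a probe. LKO was higher in 5 of the 6 pairs for Acadvl, 4 for Acadm, 3 for Cpt1a and Hadha and 2 for Cpt2. In every pair the LKO array lay on the later-numbered slide, and the share of all genes with 6 of 6 was not computed. With 6 mice per genotype and 1 slide with both genotypes, intervals of about 0.15 to 0.3 log2 units on either side of a value limit what can be seen.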
